A study of Mus musculus with 6 samples.

Results

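The genes described here are Trp53, which encodes the transcription factor p53, its inhibitors Mdm2 and Mdm4, and the p53 target genes Cdkn1a, Ccng1, Sesn1, Sesn2, Trp53inp1, Zmat3 and Phlda3. They were chosen by gene symbol, and the 10 genes are 10 of the 41079 genes listed in the deposited table. All 10 passed the filter on low values and are among the 12227 genes tested. RNA sequencing was performed on D10 cells, a cloned mouse helper T cell line, CD4+ by its label, that grows in IL-2 and recognizes a conalbumin peptide, so the replicates are cultures of 1 clone and not separate animals. Non-acclimated cells were cultured for 24 h at 37°C, and cold-acclimated cells were cultured for 24 h at 26°C (3 independently prepared replicates each, 6 libraries). The labels name RPMI 1640 as the culture medium, whereas the methods of the study name DMEM with IL-2, and neither names any other difference between the conditions.

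In unstressed cells p53 is kept low because Mdm2, a ubiquitin ligase, marks it for degradation, and Mdm4, a relative of Mdm2, blocks its activity as a transcription factor. DNA damage, nucleolar stress and other signals loosen this hold, p53 accumulates, and it raises genes that stop the cell cycle, repair DNA, restrain growth or start apoptosis. Mdm2 is itself a p53 target, which closes a feedback loop. Much of this control acts on the p53 protein, which was not measured here, and the mRNA levels below are no measure of p53 activity.

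p53 binds a motif made of a pair of 10-base half-sites, which were searched for here as adjoining half-sites only. The GRCm39 genome was searched for this p53 consensus motif within 5000 bp on either side of each gene's 5′ end as given in the deposited table, on both strands of a motif that reads alike on either, with the 4 core C and G bases fixed and up to 2 mismatches elsewhere. A site lay in the windows of 3 of the 10 genes, Cdkn1a, Ccng1 and Zmat3, and in those of 10.9% of the 10436 tested protein-coding genes searched. Half-sites set apart by other bases were not searched for, so the other members are not shown to lack a p53 site. All 5 sites found in the 3 genes had at most 1 mismatch, a match that 1.95% of the searched genes held. These sites are shown because this motif is the one p53 is known to bind, each on the gene's strand with the 20 bases of the motif in capitals and 20 flanking bases on each side.
Cdkn1a, upstream site: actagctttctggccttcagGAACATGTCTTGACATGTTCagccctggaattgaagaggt
Ccng1, upstream site: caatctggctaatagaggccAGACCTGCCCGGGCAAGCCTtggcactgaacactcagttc
Ccng1, intron 1 site: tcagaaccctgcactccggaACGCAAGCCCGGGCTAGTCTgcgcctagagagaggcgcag
Zmat3, intron 1 site: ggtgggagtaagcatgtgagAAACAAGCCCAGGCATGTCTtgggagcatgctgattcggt
Zmat3, upstream site: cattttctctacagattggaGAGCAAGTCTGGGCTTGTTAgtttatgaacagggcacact
The Cdkn1a window lies at chr17:29309882-29309941 on the plus strand, and its motif is centred 2826 bp upstream of the start of the canonical GENCODE transcript. The Ccng1 windows lie at chr11:40646269-40646328, 161 bp upstream of that start, and at chr11:40645743-40645802, 365 bp into the gene in intron 1, both on the minus strand. The Zmat3 windows lie at chr3:32418460-32418519, 1418 bp into the gene in intron 1, and at chr3:32424280-32424339, 4402 bp upstream, also on the minus strand. The intron 1 site of Zmat3 matched the motif without a mismatch. A match describes the letters only, and no binding was measured in this study.

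Expression is given in TPM, in which the authors divided the reads of each gene by its length and scaled every library to the same total. Reads per gene were recovered from the TPM, and the libraries held 16899628 to 31290854 of them. The 10 genes rested on 288 to 20735 reads per library. Genes were tested with limma on log2(TPM + 1), and p-values were adjusted by the Benjamini-Hochberg method over all of them. A call needed an adjusted p under 0.05 together with a change between 26°C and 37°C of 1 or more on the log2 scale, in either direction (SE is its standard error). Of all tested genes 2.63% were called upregulated and 16.0% downregulated, and their median log2 fold change was -0.34. Median of ratios scaling is named in the methods of the study, for read counts within DESeq2, and was applied here to the TPM. After it the median of all tested genes was 0.02 and the shares were 6.56% and 8.79%, so changes are also given relative to the median. Libraries of replicate 3 stood apart from those of replicates 1 and 2 on the second principal component, with scores of 48.0 and 55.5 against -36.3 to -10.9 for the other 4. Cd4, the marker in the label of the cells, separated the same libraries. It had 1.09, 0.0351 and 310 TPM at 37°C and 1.30, 0.352 and 328 TPM at 26°C in replicates 1, 2 and 3, so it was near 0 in the 4 libraries of replicates 1 and 2, which goes against the label, and high only in replicate 3. The other T cell markers Cd3e, Cd3d, Cd3g, Cd2, Cd28, Lck and Gata3 were at 5.61 TPM or more in every library, with Cd28 and Cd3d lowest in replicate 2. The 8 markers summed to 2671 to 4132 TPM at 37°C and 3141 to 3872 TPM at 26°C, and none was called between the temperatures. Both CD8 T cell markers and 6 of 7 B cell markers stayed under 1 TPM in every library. The remaining B cell marker, Ighm, had 0.894 to 3.13 TPM. The 6 macrophage markers summed to 2.69 to 21.4 TPM. Of these Lyz2 had 11.6 and 14.8 TPM in replicate 3 and at most 1.58 TPM elsewhere. Cd68 was present in every library, at 1.07 to 6.36 TPM, and was highest in replicate 3 at both temperatures. Mpeg1 had a mean of 0.706 TPM at 37°C and 0.0615 TPM at 26°C, while Adgre1, Csf1r and Itgam were at or near 0. The part of these differences between cultures in the results was not tested, and each of the 10 genes is therefore also given within each replicate.

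Of the 10 genes, Trp53 was the only one called in limma, as downregulated, and none was called upregulated. None of the higher genes had an unadjusted p under 0.05 either, and none was called upregulated by voom on the recovered reads. With voom Mdm2 had a log2 fold change of 0.79 (adjusted p = 0.037 in limma), under the size needed for a call. The called gene is 1 of 10 against the 16.0% of all tested genes called downregulated. By the adjusted p alone the counts were also 1 lower and 0 higher, against 17.4% and 3.30% of all tested genes. The replicate numbers pair the libraries across all genes. With the replicate as a term of the fit, 4 of the 10 were called downregulated, namely Trp53, Cdkn1a, Ccng1 and Trp53inp1, and 0 upregulated, against 21.9% and 3.75% of all tested genes, and by the adjusted p alone the counts were 4 and 0, against 29.0% and 6.89%. With median of ratios scaling Trp53 alone was called, and by the adjusted p alone Trp53 was lower and Mdm2 higher, against 9.59% and 8.33% of all tested genes. The median log2 fold change of the 10 genes was -0.47, which is 0.13 below that of all tested genes, and it was -0.09 after median of ratios scaling. The genes had no common direction. In each replicate 4 were lower at 26°C (Trp53, Cdkn1a, Ccng1 and Trp53inp1), 2 were higher in each replicate without passing the test (Mdm2 and Sesn1), and the signs of the other 4 differed between replicates.

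**Figure D1:**
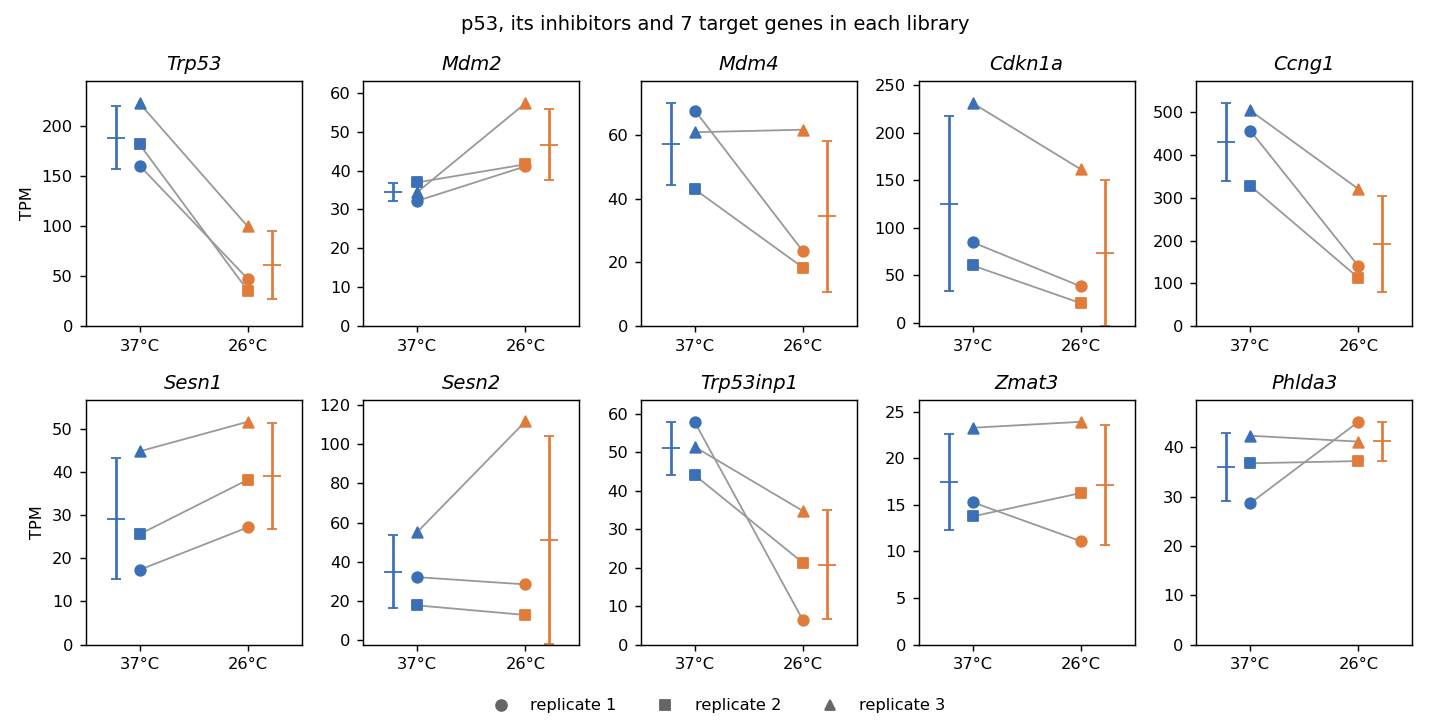
TPM of each of the 10 genes in the 6 libraries, with lines joining the libraries of a replicate and marks with bars beside them for the mean ± SD of each condition (n = 3). The groups do not overlap for Trp53, Ccng1, Trp53inp1 and Mdm2, of which only Mdm2 was higher at 26°C. Among all tested genes 31.4% had a lower range at 26°C without overlap and 9.69% a higher one. Replicate 3 gave the highest value of Trp53, Ccng1, Cdkn1a, Sesn1, Sesn2 and Zmat3 at both temperatures.

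Trp53 (chromosome 11, 69471174 to 69482699 on GRCm39, plus strand) had 160, 182 and 223 TPM at 37°C in replicates 1, 2 and 3, and 47.2, 35.5 and 99.5 TPM at 26°C. All 3 libraries at 26°C were below all 3 at 37°C, which held for 31.4% of all tested genes. The highest library at 26°C came from replicate 3. The mean fell from 188 ± 31.7 to 60.7 ± 34.1 TPM (SD, n = 3 each), a 3.10-fold decrease and a log2 fold change of -1.74 (SE 0.38, adjusted p = 0.022 in limma). Its distance from the median over all genes was -1.40, and 6.63% of tested genes had a lower fold change. Within replicates 1, 2 and 3 the difference was -1.74, -2.32 and -1.15. The call held with the replicate term (adjusted p = 0.007 in limma), with median of ratios scaling (-1.35, adjusted p = 0.037 in limma) and on leaving out replicate 3 at 26°C. It was lost, with the direction kept, when any other single library was left out of the fit without the replicate term. The adjusted p in limma was then 0.084 or 0.0718 on leaving out replicate 1 or 2 at 26°C, and 0.0623, 0.0785 or 0.0505 on leaving out replicate 1, 2 or 3 at 37°C. In bulk RNA, less Trp53 mRNA in every cell and fewer cells with Trp53 mRNA cannot be told apart, which holds for every gene below.

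Mdm2 (chromosome 10, 117524780 to 117546663, minus strand), the ubiquitin ligase of p53, had 32.2, 37.0 and 34.4 TPM at 37°C and 41.1, 41.6 and 57.3 TPM at 26°C. Each library at 26°C was above each at 37°C, but the lowest at 26°C exceeded the highest at 37°C by little. The means were 34.5 ± 2.38 and 46.7 ± 9.22 TPM (SD, n = 3 each). The log2 fold change of 0.41 (SE 0.23) did not pass the test (adjusted p = 0.24 in limma, and 0.17 with the replicate term). Within replicates the difference was 0.34, 0.17 and 0.72. Among all tested genes, 9.69% had a higher range at 26°C without overlap and 31.4% a lower one. With median of ratios scaling the fold change of Mdm2 was 0.80 with an adjusted p of 0.036 in limma, under the size needed for a call. Without that scaling 84.2% of tested genes had a lower fold change than Mdm2.

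Mdm4 (chromosome 1, 132913843 to 132958325, minus strand), which restrains p53 without being a ubiquitin ligase for it on its own, had 67.8, 43.0 and 60.9 TPM at 37°C. At 26°C it had 23.5 and 18.3 TPM in replicates 1 and 2 but 61.7 TPM in replicate 3, so the groups overlapped through that library. Its differences within replicates were -1.49, -1.18 and 0.02, and its log2 fold change was -0.89 (SE 0.45, adjusted p = 0.19 in limma, and 0.068 with the replicate term). Without cold-acclimated replicate 3 it was -1.39 and was called (adjusted p = 0.0133 in limma).

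Ratios of TPM within a library are not touched by the scaling between libraries, and a few were taken after the values of the genes had been seen, so they are given with no test. The ratio of Mdm2 to Trp53 was 0.201, 0.203 and 0.155 at 37°C and 0.871, 1.17 and 0.576 at 26°C in replicates 1, 2 and 3. Its mean was 4.69 times higher at 26°C (0.873 ± 0.298 against 0.186 ± 0.0274, SD, n = 3 each), and the groups stood well apart. At 37°C the inhibitor mRNA was thus the scarcer of the pair in each library, whereas at 26°C Mdm2 was the higher in replicate 2 and the lower in replicates 1 and 3. The ratio of Mdm4 to Mdm2 was 2.1, 1.16 and 1.77 at 37°C and 0.571, 0.441 and 1.08 at 26°C. Mdm4 was therefore the more abundant inhibitor mRNA in every non-acclimated library, and Mdm2 was so at 26°C in replicates 1 and 2.

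**Figure D2:**
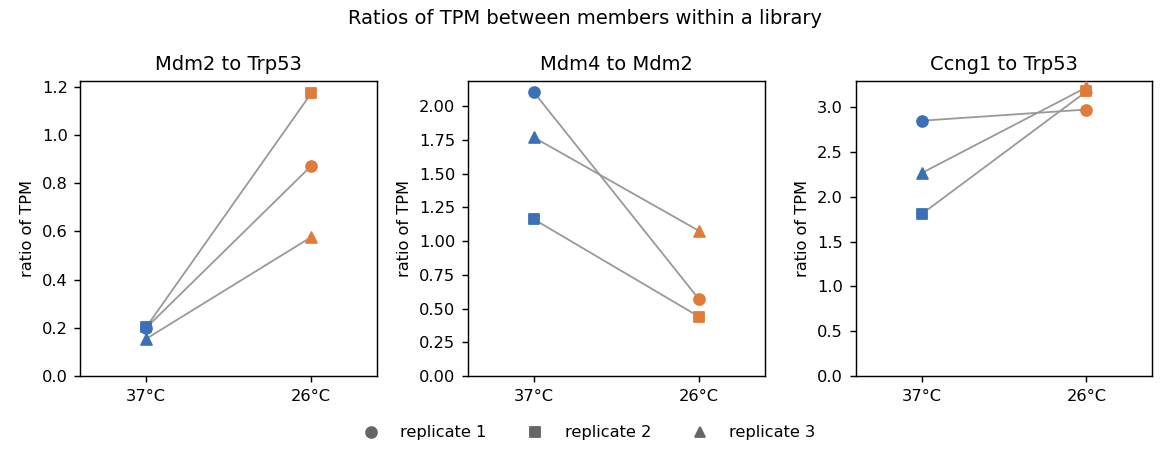
Ratios of TPM between pairs of the genes within each library at 37°C and 26°C, with lines joining the libraries of a replicate. Shown are the ratios taken whose groups did not overlap. Mdm2 to Trp53 was at most 0.203 at 37°C and at least 0.576 at 26°C, Mdm4 to Mdm2 was lower in each cold-acclimated library than in any non-acclimated one, and Ccng1 to Trp53 lay between 1.81 and 2.85 at 37°C and between 2.97 and 3.22 at 26°C.

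Cdkn1a (chromosome 17, 29309953 to 29319696, plus strand) encodes p21, the inhibitor of cyclin-dependent kinases through which p53 stops the cell cycle. It had 84.8, 60.5 and 231 TPM at 37°C and 38.5, 20.8 and 162 TPM at 26°C in replicates 1, 2 and 3. Both libraries of replicate 3 were above the other 4, and within each replicate the value at 26°C was the lower one. The differences within replicates were -1.12, -1.49 and -0.51, and the log2 fold change was -1.04 (SE 0.78, adjusted p = 0.37 in limma). With the replicate as a term of the fit the SE was 0.24 and Cdkn1a was called downregulated (adjusted p = 0.02 in limma), but with that term and median of ratios scaling together it was -0.65 and not called (adjusted p = 0.057 in limma). Without both libraries of replicate 3, a fit chosen once the values were known, the fold change was -1.31 and was called (adjusted p = 0.0362 in limma). Replicate 3 was 2.72 times the higher of the other replicates at 37°C and 4.19 times at 26°C. Replicates 1 and 2 differed less from each other at either temperature than each did between the temperatures.

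Ccng1 (chromosome 11, 40639379 to 40646044, minus strand) encodes cyclin G1, which recruits a phosphatase to Mdm2 and, like Cdkn1a, is raised by p53. It was the most abundant of the 10 genes, with 457, 328 and 504 TPM at 37°C and 140, 113 and 320 TPM at 26°C. The groups did not overlap, although cold-acclimated replicate 3 came within a few TPM of the lowest library at 37°C. The means were 430 ± 91.2 and 191 ± 113 TPM (SD, n = 3 each), with a log2 fold change of -1.29 (SE 0.41, adjusted p = 0.059 in limma), just short of the threshold. Within replicates it was -1.70, -1.53 and -0.65. Ccng1 was called with the replicate term (adjusted p = 0.011 in limma) and without cold-acclimated replicate 3 (-1.74, adjusted p = 0.00603 in limma). With the replicate term and median of ratios scaling it had a fold change of -0.90 (adjusted p = 0.03 in limma), under the size needed for a call.

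Sesn1 (chromosome 10, 41686570 to 41784432, plus strand) and Sesn2 (chromosome 4, 132220115 to 132237767, minus strand) encode sestrins, stress proteins that restrain mTORC1. Sesn1 had 17.3, 25.5 and 44.8 TPM at 37°C and 27.1, 38.2 and 51.6 TPM at 26°C. It was higher at 26°C in each replicate, by 0.62, 0.56 and 0.20 on the log2 scale, while the groups overlapped because the cultures differed more than the temperatures. Its log2 fold change of 0.46 (SE 0.39) did not pass the test (adjusted p = 0.44 in limma, and 0.13 with the replicate term). With that term and median of ratios scaling it was 0.85 with an adjusted p of 0.029 in limma, under the size needed for a call. Without replicate 1 at 37°C it was 0.15. Sesn2, which also responds to amino acid shortage, had 32.2, 17.9 and 55.2 TPM at 37°C and 28.5, 13.0 and 112 TPM at 26°C. It was lower at 26°C in replicates 1 and 2, by differences of -0.17 and -0.43, and 1.00 higher on the log2 scale in replicate 3. The log2 fold change of 0.13 (SE 0.75, adjusted p = 0.92 in limma, and 0.76 with the replicate term) turned to -0.69 without cold-acclimated replicate 3, so no direction can be given for Sesn2.

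Trp53inp1 (chromosome 4, 11156441 to 11174379, plus strand), a p53-induced protein with roles in cell death and autophagy, had 57.8, 44.0 and 51.4 TPM at 37°C. At 26°C it had 6.28, 21.2 and 34.7 TPM, all below the libraries at 37°C, with the cold-acclimated library of replicate 1 lowest. The log2 fold change was -1.53 (SE 0.54, adjusted p = 0.081 in limma), and within replicates it was -3.01, -1.02 and -0.55. It was called with the replicate term (adjusted p = 0.041 in limma) and without cold-acclimated replicate 3 (-2.02, adjusted p = 0.0207 in limma), but not with the replicate term and median of ratios scaling together (-1.15, adjusted p = 0.1 in limma).

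Zmat3 (chromosome 3, 32388941 to 32419814, minus strand), an RNA-binding zinc finger protein, was the least abundant of the 10, with 15.3, 13.8 and 23.3 TPM at 37°C and 11.1, 16.3 and 23.9 TPM at 26°C. Its means of 17.5 ± 5.12 and 17.1 ± 6.46 TPM (SD, n = 3 each) differed by less than the spread between replicates (log2 fold change -0.05, SE 0.34, adjusted p = 0.93 in limma, and 0.87 with the replicate term). Within replicates 1, 2 and 3 the difference of Zmat3 was -0.43, 0.23 and 0.04. Its sign turned with the scaling, to 0.32 after median of ratios scaling. Reads of Zmat3 could in part belong to an ncRNA gene on the other strand, 4930429B21Rik, which had 1.25 to 5.20 TPM. Phlda3 (chromosome 1, 135693823 to 135696872, plus strand), a small protein that competes with Akt for membrane lipids, had 28.6, 36.7 and 42.3 TPM at 37°C and 45.1, 37.2 and 41.1 TPM at 26°C. These values overlapped, with differences of 0.64, 0.02 and -0.04 within replicates. The log2 fold change of Phlda3 was 0.21 (SE 0.24, adjusted p = 0.57 in limma, and 0.51 with the replicate term).

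By mean TPM the order at 37°C was Ccng1, Trp53, Cdkn1a, Mdm4, Trp53inp1, Phlda3, Sesn2, Mdm2, Sesn1 and Zmat3. Neighbours whose ranges did not overlap were Ccng1 and Trp53, and Trp53inp1 and Phlda3, and the ranges of all other neighbours did. The order at 26°C was Ccng1, Cdkn1a, Trp53, Sesn2, Mdm2, Phlda3, Sesn1, Mdm4, Trp53inp1 and Zmat3, with overlapping ranges for every pair of neighbours. Trp53 lay above a median of 91.9% of tested genes in a non-acclimated library and above 73.7% in a cold-acclimated one, whereas Mdm2 lay above 60.4% and 71.8%.

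The cultures also differed in these genes. The variation of log2(TPM + 1) over the 6 libraries was divided into parts for the temperature, the replicate number and the rest. The part for the replicate number spans more groups than that for temperature, so unrelated variation alone would give it the larger share. The shares therefore do not rank the sizes of the differences. Temperature held 78.4% of the variation of Trp53, 63.2% of that of Ccng1, 61.0% of that of Mdm2 and 55.1% of that of Trp53inp1. The replicate number held 89.7% of the variation of Sesn2, 85.9% of that of Zmat3, 77.0% of that of Sesn1 and 76.7% of that of Cdkn1a. Its share was larger than that of temperature in 5 of the 10 genes and in 45.2% of all tested genes. Replicate 3 was the highest replicate for 7 of the 10 genes at 37°C, compared with 39.5% of all tested genes, and for 9 of 10 at 26°C, compared with 49.5%. These counts are a description, and which of the extraction batches named in the labels each replicate belongs to is not given.

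**Figure D3:**
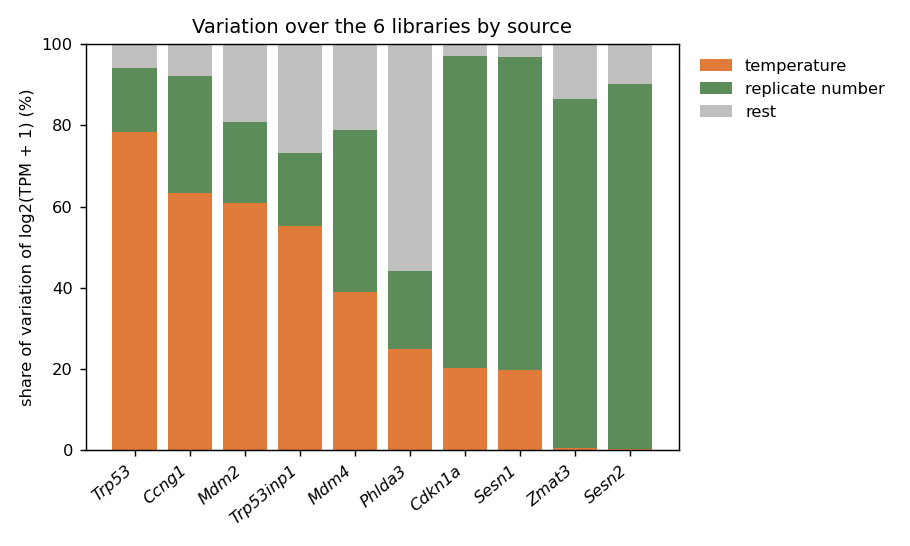
Share of the variation of log2(TPM + 1) over the 6 libraries that went with temperature, replicate number and the rest, for each of the 10 genes in order of the temperature share. Temperature held most of the variation in Trp53, Ccng1, Mdm2 and Trp53inp1, and the replicate number in Cdkn1a, Sesn1, Zmat3 and Sesn2.

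Within replicate 1 the differences between 26°C and 37°C ranged from -3.01 for Trp53inp1 to 0.64 for Phlda3, and within replicate 2 from -2.32 for Trp53 to 0.56 for Sesn1. Within replicate 3 they ranged from -1.15 for Trp53 to 1.00 for Sesn2. The median over the 10 genes was -0.77, -0.73 and -0.01 in replicates 1, 2 and 3, against -0.32, -0.44 and -0.24 for all tested genes. Without both libraries of replicate 3, 5 of the 10 were called downregulated (Trp53, Mdm4, Cdkn1a, Ccng1 and Trp53inp1) and 0 upregulated in limma, against 25.3% and 5.34% of all tested genes in that fit.

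**Figure D4:**
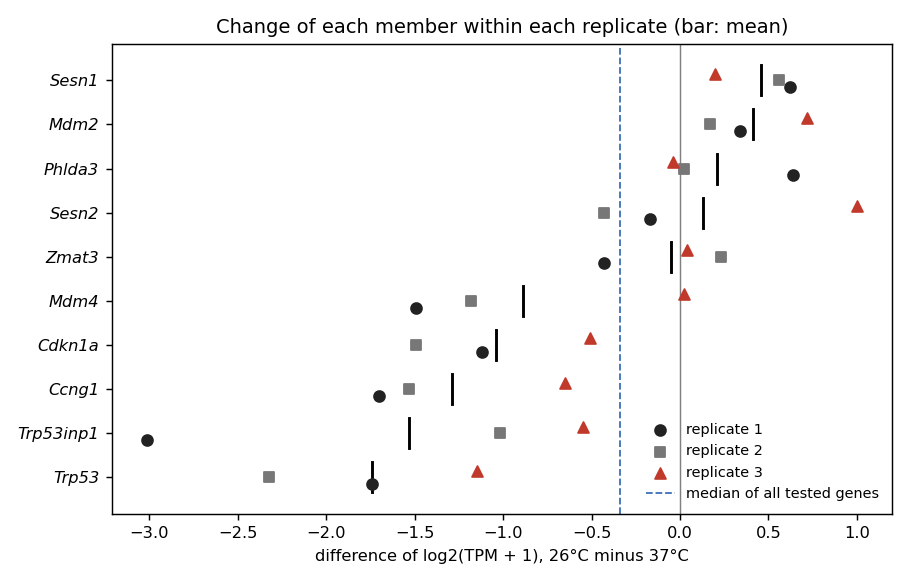
Difference of log2(TPM + 1) between 26°C and 37°C within each replicate (points) and its mean (bars) for the 10 genes, with the median of all tested genes at -0.34 as a dashed line. Trp53, Trp53inp1, Ccng1 and Cdkn1a lie below 0 in the 3 replicates and Mdm2 and Sesn1 above 0, while the point of replicate 3 is the highest for Trp53, Trp53inp1, Ccng1, Cdkn1a, Mdm4, Sesn2 and Mdm2.

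The wider pathway was followed in 4 lists with 102 genes. Among the regulators of p53, 6 of 21 tested genes were called downregulated and 0 upregulated, compared with 16.0% and 2.63% of all tested genes. With median of ratios scaling 6 were called downregulated and 1 upregulated (8.79% and 6.56% of all tested genes). With the replicate term the counts were 7 and 0 (21.9% and 3.75%), and Chek1 was the added gene (-2.05, adjusted p = 0.014 in limma). The genes called in the first of these fits were the damage-sensing kinases Atm, Atr and Prkdc, the checkpoint kinase Chek2, the ubiquitin ligase Cop1 and the p53 relative Trp73. Atm, which phosphorylates p53 after DNA breaks, fell from 25.6 ± 7.14 to 5.70 ± 1.91 TPM (log2 fold change -2.0, SE 0.31, adjusted p = 0.0093 in limma). Trp73 fell from 8.85 ± 3.32 to 0.952 ± 0.363 TPM (-2.30, SE 0.34, adjusted p = 0.0083 in limma). Both kept their call without any one library. Those with the smallest p among the higher genes were Usp7, a deubiquitinase of Mdm2 and p53, with 99.0 ± 28.4 and 155 ± 15.7 TPM (log2 fold change 0.67, adjusted p = 0.099 in limma), and Rpl11, a ribosomal protein that binds Mdm2, with 1006 ± 229 and 1546 ± 321 TPM (0.62, adjusted p = 0.14 in limma). Usp7 was called upregulated with median of ratios scaling (1.07, adjusted p = 0.028 in limma). With the replicate term the adjusted p in limma was 0.039 for Usp7 and 0.0449 for Rpl11, and with that term and median of ratios scaling both were called upregulated, Rpl11 with 1.02 (adjusted p = 0.021 in limma). The p53 relative Trp63 and Cdkn2a, which encodes the Mdm2 inhibitor Arf, were listed at 0 in the 6 libraries. The median log2 fold change of the list was -0.40, and the number called downregulated ranged from 2 on leaving out replicate 2 at 37°C to 9 without replicate 3 at 26°C, and was 3 without replicate 1 of either temperature. Of the 12227 tested genes 345 were called downregulated without replicate 2 at 37°C and 2725 without replicate 3 at 26°C. Without replicate 1 it was 450 for the library at 26°C and 527 for that at 37°C.

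Of the other p53 targets, 33 of 42 were tested, and the other 9 stayed under 1 TPM in every library. Calls were made for 8 lower and 2 higher genes, against 16.0% and 2.63% of all tested genes. With median of ratios scaling they were made for 5 lower and 3 higher genes (8.79% and 6.56% of all tested genes). With the replicate term they were made for 8 lower and 3 higher genes (21.9% and 3.75%), and Plk3 was the added higher gene (1.04, adjusted p = 0.048 in limma). The median log2 fold change was -0.36, which is 0.02 below that of all tested genes. Gadd45a, a growth arrest and DNA damage protein, rose from 9.08 ± 3.60 to 22.7 ± 5.89 TPM (log2 fold change 1.28, SE 0.36, adjusted p = 0.045 in limma). Bloc1s2, a subunit of a complex for lysosome-related organelles, rose, with 15.4, 20.04 and 24.6 TPM at 37°C and 41.2, 45.2 and 47.6 TPM at 26°C (1.14, SE 0.25, adjusted p = 0.021 in limma). Both calls were lost on leaving out replicate 1 or replicate 2 of either temperature, with adjusted p of up to 0.14 for Gadd45a and 0.081 for Bloc1s2 in limma, and that of Gadd45a was also lost without replicate 3 at 37°C. Btg2, an antiproliferative protein, fell from 35.2 ± 17.2 to 3.37 ± 0.529 TPM (-2.95, SE 0.36, adjusted p = 0.007 in limma). Apaf1, the scaffold of the apoptosome, fell from 24.5 ± 2.24 to 3.92 ± 2.46 TPM (-2.49, SE 0.38, adjusted p = 0.009 in limma). The other downregulated targets were Pidd1, Ddb2, Polk, Polh, Fdxr and Psrc1, of which Ddb2, Polk and Polh act in DNA repair or in synthesis past damage. The targets that start apoptosis through mitochondria had log2 fold changes of -0.32 for Bbc3, 0.51 for Pmaip1 and -0.26 for Bax, and none passed the test (adjusted p of 0.56, 0.33 and 0.66 in limma). The number of targets called downregulated was 2 on leaving out replicate 1 at 26°C or replicate 2 at 37°C, 3 without replicate 1 at 37°C, 4 without replicate 2 at 26°C, 8 without replicate 3 at 37°C and 9 without replicate 3 at 26°C. Of the 12227 tested genes 450, 345, 527, 600, 1820 and 2725 were called downregulated in these fits, in the same order.

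Downstream of p21, cyclin-dependent kinases, the RB family and the E2F factors decide on entry into S phase, and the DREAM complex keeps mitotic genes silent. Of 21 tested genes of p21 and RB signalling, 5 were called downregulated (Rb1, Rbl2, E2f1, Tfdp1 and Lin37) and 0 upregulated, against 16.0% and 2.63% of all tested genes. The number called downregulated was 8 with the replicate term (21.9% of all tested genes) and 2 with median of ratios scaling (8.79%). With both together it was 4, and 1 gene was called upregulated, against 12.6% and 8.88% of all tested genes. On leaving out single libraries it was 10 without replicate 3 at 26°C, 1 without replicate 1 or 2 at 26°C or replicate 1 at 37°C, 0 without replicate 2 at 37°C and 4 without replicate 3 at 37°C. Of the 12227 tested genes 2725 were called downregulated without replicate 3 at 26°C, and 345 to 1820 without any other single library. Tfdp1, the partner of E2F factors in DNA binding, fell from 186 ± 43.0 to 49.3 ± 28.1 TPM (log2 fold change -2.01, SE 0.40, adjusted p = 0.016 in limma). Lin37, a DREAM subunit, fell from 35.5 ± 4.70 to 13.0 ± 1.36 TPM (-1.37, SE 0.23, adjusted p = 0.011 in limma), and its fold change was -0.99 with median of ratios scaling. Tfdp1 lost its call on leaving out replicate 1 at 26°C or replicate 2 of either temperature (adjusted p of up to 0.066 in limma), and Lin37 without non-acclimated replicate 1 or 2 (up to 0.06). E2f4 and Cdk6 were higher on average, with log2 fold changes of 0.52 and 1.00, and did not pass the test (adjusted p of 0.15 and 0.19 in limma). Cdk6 had an adjusted p of 0.0187 in limma with the replicate term, and with that term and median of ratios scaling it was called upregulated (1.39, adjusted p = 0.014 in limma). E2f4 had an adjusted p of 0.117 in limma with the replicate term, and of 0.0445 with median of ratios scaling, where its change of 0.92 was under the size needed for a call.

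All 14 mitotic genes that p21 and DREAM are known to lower had a negative log2 fold change, also with median of ratios scaling and after quantile normalization, with a median of -1.40. Each of them was lower at 26°C within replicates 1 and 2. Within replicate 3 Plk1, Aurkb, Ccna2 and Top2a were lower and the other genes of the list higher. There Ccnb1 had 166 TPM at 37°C and 261 TPM at 26°C, and Cdc20 had 93.8 and 145 TPM. Only Plk1, Aurkb and Top2a were called, 3 of 14 against 16.0% of all tested genes. With the replicate term 4 were called (21.9% of all tested genes), and with median of ratios scaling 1, Aurkb (8.79%). On leaving out single libraries 13 were called without replicate 3 at 26°C, where 22.3% of all tested genes were called downregulated and 3.75% upregulated, and 0 without any other. Top2a, the topoisomerase of dividing cells, had 531, 441 and 483 TPM at 37°C and 54.6, 33.4 and 278 TPM at 26°C (log2 fold change -2.58, SE 0.69, adjusted p = 0.038 in limma). Aurkb, a mitotic kinase, had 201, 170 and 163 TPM at 37°C and 39.3, 17.8 and 86.3 TPM at 26°C (-2.14, SE 0.51, adjusted p = 0.027 in limma). For both, the cold-acclimated library of replicate 3 was the highest of its group. Cdkn1a, whose product inhibits the kinases that act upstream of these genes, was lower at 26°C in each replicate, unlike most of these genes. Over the 6 libraries without the replicate term it was not called (adjusted p = 0.37 in limma). The p21 protein was not measured, and a link to the mitotic genes was not tested.

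**Figure D5:**
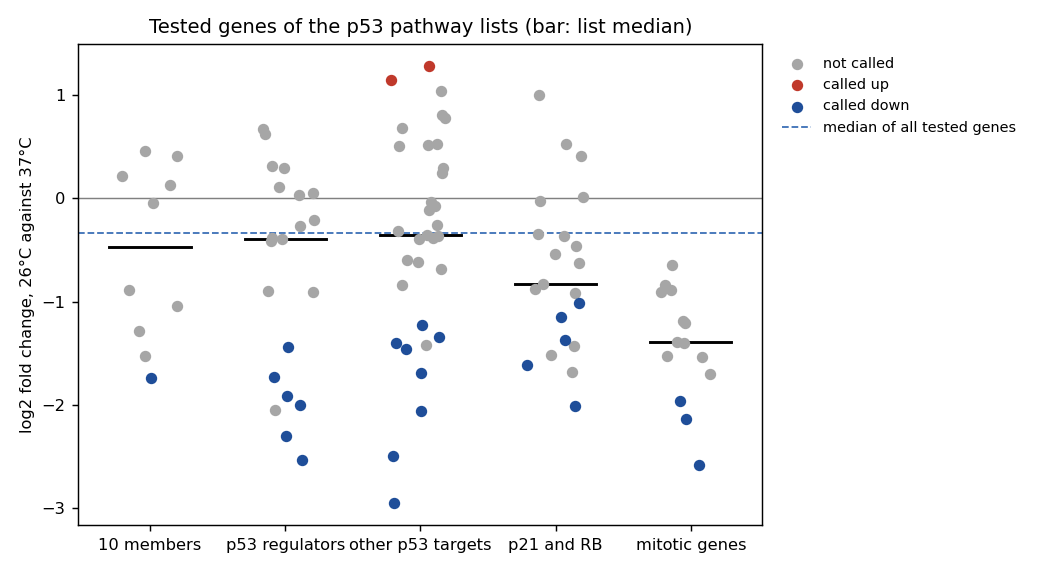
Log2 fold change between 26°C and 37°C of the tested genes among the 10 members and in each of the 4 lists, coloured by the call in limma, with the median of each list as a bar and that of all tested genes at -0.34 as a dashed line. The medians were -0.47, -0.40, -0.36, -0.83 and -1.40 from left to right, and 2 genes, both p53 targets, were called upregulated.

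The genes whose pattern over the 6 libraries was most like that of Trp53, Mdm2 and Cdkn1a were sought among the 9742 other genes with a mean of at least 5 TPM, by the root mean square difference of log2(TPM + 1) values centred on their mean. For Trp53 they were Pask (0.0971), Pak2 (0.111) and Utp11 (0.121). For Mdm2 they were Ccdc25 (0.0508), Cwc15 (0.0731) and Zfp597 (0.0896), and for Cdkn1a they were Vgll1 (0.236), Was (0.282) and 1700097N02Rik (0.29). By this measure Cdkn1a had no neighbour as close as Trp53 and Mdm2 had. The difference was not scaled to the spread of each gene, so it does not rank how unusual the 3 patterns were. Vgll1 shared the high values of Cdkn1a in both libraries of replicate 3, with 274 TPM at 37°C and 165 TPM at 26°C.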

How the data were processed

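The authors selected poly(A)+ RNA from D10 cells, made strand-specific libraries, aligned reads to GRCm39 with HISAT2 (2.1.0) after FastQC (0.11.7) and Trimmomatic (0.38), and counted them per gene with featureCounts (1.6.3), versions as in the submitters' processing notes. TPM values were used as deposited by the authors. The annotation release, strand setting and gene lengths are not stated in the sources used. Whole reads per gene were worked back from the spacing of its TPM values, within 1e-06 reads for 21195 of 21195 genes above 0 TPM. limma (3.58.1, R 4.3.3) was fitted with a mean-variance trend to log2(TPM + 1) of the 12227 genes with a mean of at least 1 TPM, without a replicate term (a fold change on this scale understates that of low genes), and Python (3.11.15) with pandas (2.3.3), numpy (2.4.6) and matplotlib (3.10.9) served for the rest. The procedure was tested on simulated data. Members and lists were chosen with earlier results of these data known. The rule for naming genes took the 10 members, the 2 genes per list with the smallest p in each direction, and for Trp53, Mdm2 and Cdkn1a the 3 genes most like each. Other genes of the lists were named after their values were seen. Libraries with the same replicate number deviated together from their group means (correlations across genes of 0.48, 0.50 and 0.51, against -0.41 to 0.02 for different numbers). The fit without a replicate term leaves this pairing out, and the fits that left out libraries had no replicate term either. Values with the replicate term are therefore also given for the 10 members and for the counts of each list. Motif positions were read from GRCm39 and GENCODE vM39.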

Additional observations from a re-analysis of the deposited data

How the results depend on the processing

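The fold changes of the 10 genes, those of the genes named by the rule for the lists, and the counts of calls were recomputed under 15 other settings (Trp73 under 14, as it did not reach a mean of 5 TPM), of which 1, without both libraries of replicate 3, was added once the values were known. Trp53 was lower at 26°C under all 15, and Mdm2, Sesn1 and Phlda3 were higher and Ccng1, Cdkn1a, Mdm4 and Trp53inp1 lower under all 15. The call of Trp53 was lost without a filter on low values (-1.74, adjusted p = 0.054 in limma, with more genes tested), which left 0 of the 10 genes called downregulated. With the replicate block 4 of the 10 were called, as Cdkn1a (-1.04), Ccng1 (-1.29) and Trp53inp1 (-1.53) passed the test. Without replicate 3 it was 5 of the 10, with -1.34 for Mdm4, -1.31 for Cdkn1a, -1.61 for Ccng1 and -2.02 for Trp53inp1, while Sesn2 turned to -0.30. Zmat3 turned to 0.32 with median of ratios scaling, alone or with the replicate block, to 0.47 after quantile normalization and to 0.31 with voom on recovered reads. Leaving out single libraries gave 0 to 4 of the 10 genes called downregulated, and log2 fold changes of -2.16 to -1.43 for Trp53, -1.39 to -0.55 for Mdm4, -1.86 to -0.42 for Cdkn1a, -1.74 to -0.99 for Ccng1, -0.69 to 0.82 for Sesn2, 0.15 to 0.81 for Sesn1, 0.26 to 0.49 for Mdm2, 0.06 to 0.33 for Phlda3, -2.02 to -0.88 for Trp53inp1 and -0.32 to 0.20 for Zmat3. Of all tested genes 321 were called upregulated and 1954 downregulated. The numbers were 802 and 1075 with median of ratios scaling, 731 and 765 after quantile normalization, 717 and 1170 with voom, 184 and 1121 without the filter, 1086 and 1544 with the replicate block and median of ratios scaling, 653 and 3088 without replicate 3, and 59 to 459 and 345 to 2725 without single libraries. The cause was not tested for any of these changes. The 10 genes had at least 288 reads in each library, and precision was limited by the spread between the 3 libraries of a condition. The ratios, shares of variation, motif counts, likeness of patterns and the other genes given with values were not recomputed in this way.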
